A study of Mus musculus with 6 samples.

Results

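The glucocorticoid receptor gene Nr3c1 and 9 genes tied to its action were followed in cells of S49, a mouse T lymphoma line. The members were found by name: every gene spot of the array whose gene name, or an older synonym of it, was Nr3c1, Tsc22d3, Fkbp5, Fkbp4, Per1, Sgk1, Klf9, Txnip, Ddit4 or Btg1. This gave 10 of the 27670 gene names on the array and 22 of its 41174 probes; Sgk1 carries its older name, Sgk, there. The study compared Neo, the parental S49 line, with MR 4-25, a line recovered after mannitol, a sugar alcohol that raises the osmolarity of the medium. Each line had 3 samples with 1 array each, hybridised with RNA labelled with the dye Cy3. All 6 samples were untreated and both lines grew in RPMI-1640 medium with heat-inactivated fetal calf serum, so the values are basal levels, with no glucocorticoid named as added. MR 4-25 is a single recovered line, and the labels do not say whether the samples of a line were separate cultures, so the tests weigh differences against the variation among these arrays, part or all of which may be technical.

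The glucocorticoid receptor is a hormone-activated transcription factor. Without hormone it is held in the cytoplasm by the heat shock protein Hsp90 with cochaperones, among them the immunophilins encoded by Fkbp5 and Fkbp4; with hormone it enters the nucleus and binds DNA at paired half-sites. In immature T cells and T lymphomas it is known for triggering cell death, and S49 is a classical line for selecting glucocorticoid-resistant variants. Sgk1 is also known as a kinase gene that responds to changes in cell volume.

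On 5 arrays, the scanner software called 69.9% to 76.3% of probes well above background, and the signal at the 75th percentile was 844 to 988 intensity units. The array MR 4-25 3 was dimmer, at 61.3% and 521 units. Neo 1, Neo 2, MR 4-25 1 and MR 4-25 2 shared slide 1, and Neo 3 and MR 4-25 3 shared slide 2. All 10 T cell markers listed were well above background on all 6 arrays, as were 15238 of the 21341 genes tested. Of these markers 0 passed the test between the lines, beside 1.23% of all genes. Other markers also had enough signal to be tested: 5 of 5 B cell, 5 of 5 myeloid, 3 of 3 fibroblast and 1 of 3 erythroid. None of those passed, but myeloid Lyz2 did with the filter on all 6 arrays (log2 difference 1.06, adjusted p 0.0206 in limma). Detection alone therefore does not mark a cell type. In RNA from whole cultures, fewer cells of a type and less RNA per cell cannot be told apart.

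The probes are 60 bases long. The sequences below show what was measured for a member whose probes ran apart (Fkbp5), for its opposing cochaperone (Fkbp4) and for a probe of Txnip that is split in the genome. Positions are on build mm7, as the array annotation gives them; whether a probe lies in an exon or a UTR was not analysed here beyond these positions. The Fkbp5 probe A_52_P481493 lies at chr17:26624510-26624569 on the minus strand, 37342 bases from the nearest other Fkbp5 probe. The brightest Fkbp4 probe, A_52_P585104, lies at chr6:128456421-128456480 on the minus strand. The Txnip probe A_52_P420792 lies at chr3:96433112-96433286 on the plus strand, so that its 60 bases span 175 bases of the genome.
Fkbp5 A_52_P481493: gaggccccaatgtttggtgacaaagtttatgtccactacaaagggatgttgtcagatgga
Fkbp4 A_52_P585104: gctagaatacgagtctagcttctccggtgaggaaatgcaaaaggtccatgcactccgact
Txnip A_52_P420792: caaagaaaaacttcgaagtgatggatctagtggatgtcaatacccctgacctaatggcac

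The receptor binds a pair of 6-base half-sites that face each other across 3 bases, so the members' promoters were searched for GNACA followed by NNN and TGTNC, where N is any base, a loose form of that site that reads the same on both strands. Promoters came from RefSeq on build GRCm38.p6, as windows of 300 bases reaching from 250 bases before to 50 bases after each start. The windows searched included 17 from 9 of the 10 members. Nr3c1 had none among them, so the receptor's own promoter was not searched. The site was found in 2 of these 17 windows, 1 of Txnip and 1 of the 6 of Sgk1. Among all 32851 windows searched, which left out those of Nr3c1, 0.475% held it. The fuller form, AGAACA followed by NNN and TGTTCT, which includes the first, was found in the same Sgk1 window and in 3 windows (0.00913%) in all. The half-site AGAACA, searched on both strands, was in 4 of the 17 windows, of Sgk1 and Tsc22d3, and in 19% of all windows. The 250 bases before the start are shown for the Txnip and Sgk1 windows because each holds a match to the loose form, marked by capitals. The array differences of these genes had opposite signs on their brightest probes, but neither passed the test. The second Sgk1 probe had the same sign as Txnip, at 0.41. The Txnip stretch is chr3:96557707-96557956 on the plus strand, with the match from 172 to 160 bases before the start. The Sgk1 stretch is chr10:21993640-21993889 on the plus strand, with the match from 188 to 176 bases before the start. A match is a description of letters, not a measured binding site.
Txnip promoter: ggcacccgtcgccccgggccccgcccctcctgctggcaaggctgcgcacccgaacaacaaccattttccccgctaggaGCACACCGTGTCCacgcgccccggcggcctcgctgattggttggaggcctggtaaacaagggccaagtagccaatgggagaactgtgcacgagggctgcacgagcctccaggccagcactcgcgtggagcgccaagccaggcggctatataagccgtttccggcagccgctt
Sgk1 promoter: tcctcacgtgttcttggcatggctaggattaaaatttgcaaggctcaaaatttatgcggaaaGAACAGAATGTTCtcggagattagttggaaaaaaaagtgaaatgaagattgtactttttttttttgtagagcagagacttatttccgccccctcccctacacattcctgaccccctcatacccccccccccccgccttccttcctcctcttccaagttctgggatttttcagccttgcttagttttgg

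None of the 10 genes differed between MR 4-25 and Neo beyond the spread between arrays. Levels are log2 signals relative to the array's 75th percentile, on the brightest probe of a gene, and each difference is the log2 level of MR 4-25 minus that of Neo. Passing means an adjusted p under 0.05 in limma, with Benjamini-Hochberg adjustment over all 21341 genes tested. By this rule 0 of 10 members passed, where 263 genes (1.23%) passed in all, 144 higher (0.675%) and 119 lower (0.558%) in MR 4-25, and 0 of 10 had an unadjusted p under 0.05, where 13.3% of all genes did. On single probes, 0 of the 21 tested passed, against 1.3% of 30965 probes, and 0 of 21 had an unadjusted p under 0.05, against 14.2%. The levels of the 2 lines overlapped for all 10 members, while they did not overlap for 24.3% of all genes. The members' median difference was 0.24, against 0.0085 over all genes, with 7 members above 0 and 3 below. Of all genes, 10794 were above 0 and 10547 below. The count of 263 genes was 1 with the replicate numbers as a block. It was 0 without Neo 1, 0 without Neo 2, 36 without Neo 3, 9 without MR 4-25 1, 6 without MR 4-25 2 and 223 without MR 4-25 3.

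**Figure D1:**
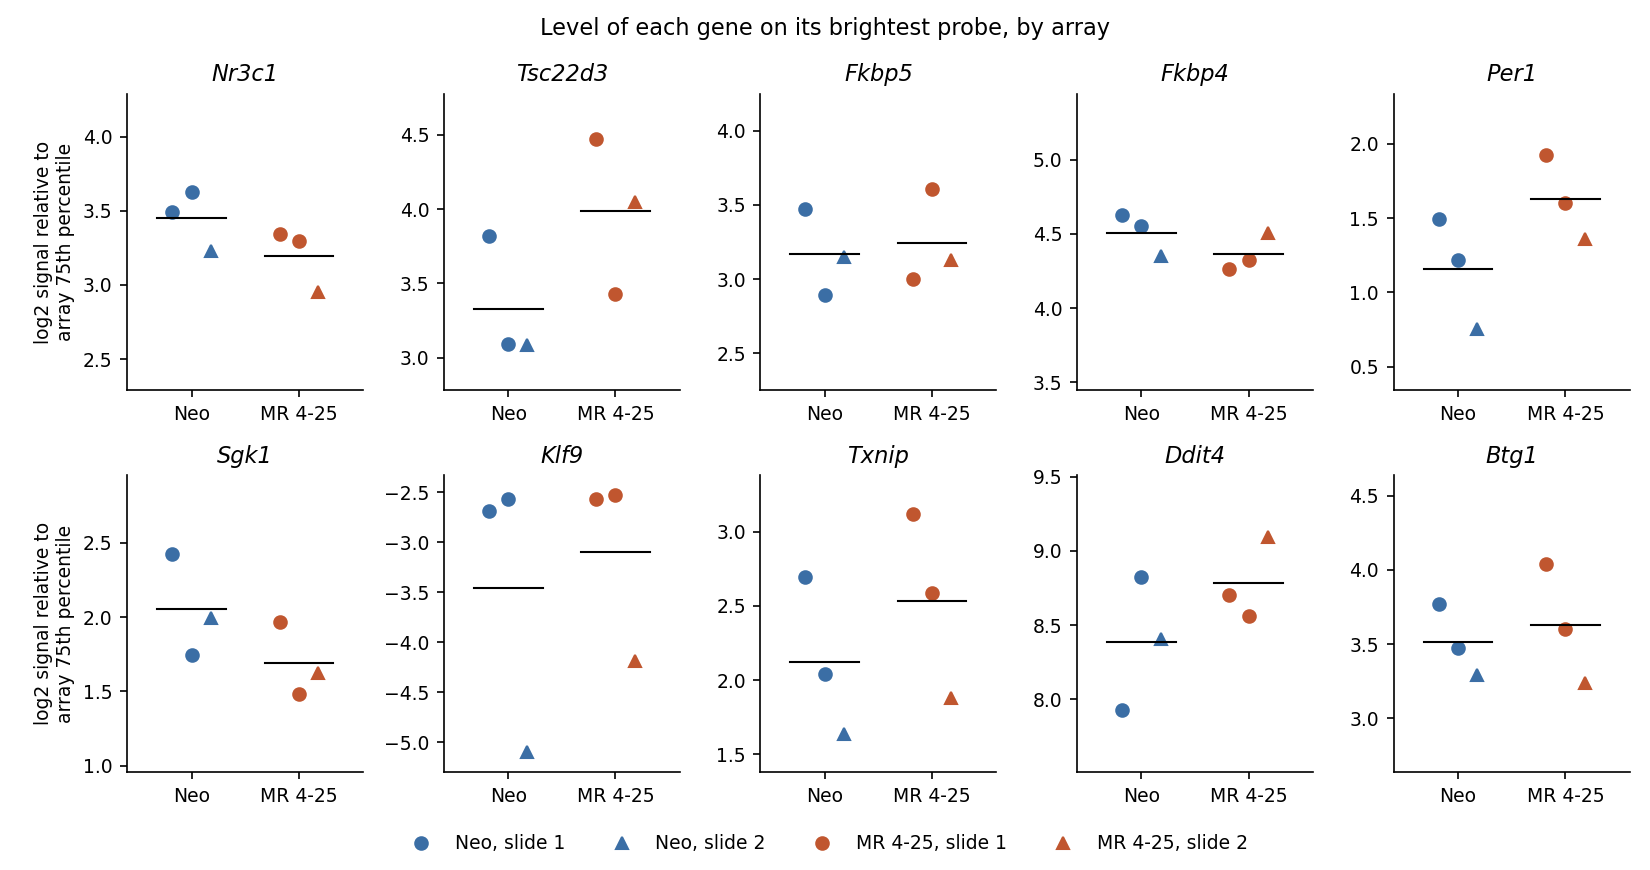
Log2 signal relative to the array's 75th percentile for the brightest probe of each of the 10 genes, 1 point per array (circles, slide 1; triangles, slide 2), with a line at the mean of each group of 3; the panels have separate axes and that of Klf9 covers a wider range. In every panel the points of Neo and MR 4-25 overlap.

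Nr3c1, the receptor itself, was measured by 4 probes, all well above background on all 6 arrays. On its brightest probe the level was 3.49, 3.63 and 3.23 in Neo 1, 2 and 3, and 3.35, 3.29 and 2.95 in MR 4-25 1, 2 and 3. Each array of MR 4-25 was lower than the Neo array of the same number, and MR 4-25 1 and 2 lay within the range of Neo. The means were 3.45 ± 0.20 and 3.20 ± 0.21 (SD, n = 3 each). The difference was -0.25 (SE 0.20), with an adjusted p of 0.677 in limma. Its 95% interval runs from 1.68-fold lower to 1.18-fold higher in MR 4-25. The difference was -0.24 within slide 1 and -0.28 within slide 2. On this probe Nr3c1 varied little between arrays of a line: its pooled SD was 0.208, and 26.3% of genes had a smaller one. Probes A_51_P355693, A_52_P254174 and A_52_P63106 varied more in MR 4-25, with SDs of 0.69, 0.62 and 0.44. In Neo their SDs were 0.088, 0.059 and 0.17.

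The other 3 probes of Nr3c1 also had lower means in MR 4-25, but through 1 array. Probe A_51_P355693 gave -0.71, -0.62 and -0.80 in Neo and -0.49, -0.76 and -1.81 in MR 4-25. Probe A_52_P254174 gave -0.12, -0.22 and -0.13 in Neo and -0.07, -0.44 and -1.27 in MR 4-25. Probe A_52_P63106 gave 1.18, 1.02 and 0.84 in Neo and 1.08, 0.89 and 0.25 in MR 4-25. On all 4 probes the lowest value was that of MR 4-25 3, the dimmest array. The differences of these 3 probes were -0.31, -0.43 and -0.27 in that order, with adjusted p of 0.771, 0.641 and 0.705 in limma over all probes. Without MR 4-25 3 they were 0.086, -0.095 and -0.027, and that of the brightest probe was -0.13. Over the 6 arrays the pairs of Nr3c1 probes correlated at 0.769 to 0.961, a description of values that share arrays and samples.

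**Figure D2:**
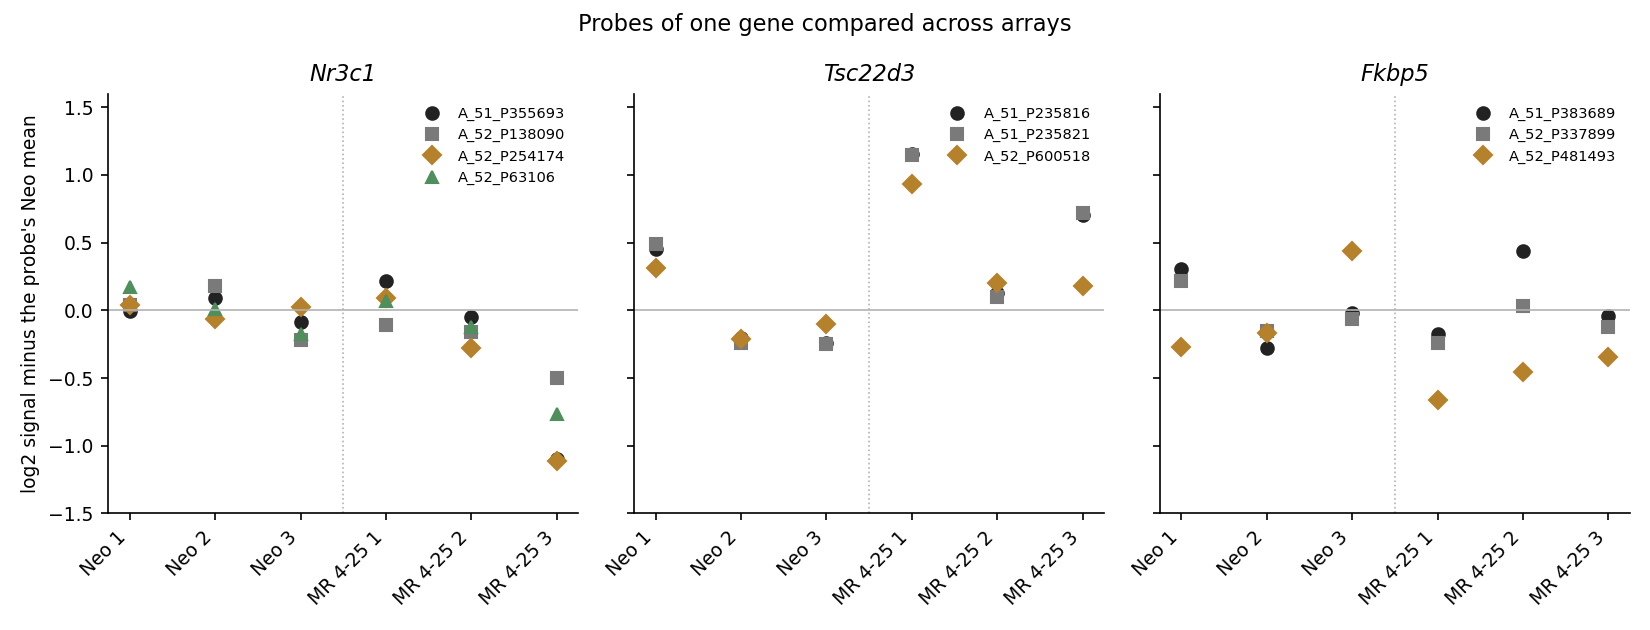
Log2 signal of each probe of Nr3c1, Tsc22d3 and Fkbp5 on each array, minus that probe's mean over the 3 Neo arrays (grey line at 0). The Nr3c1 probes lie lowest on MR 4-25 3. The Tsc22d3 probes A_51_P235816 and A_51_P235821 move together, and A_52_P600518 lies below them on MR 4-25 3. The Fkbp5 probe A_52_P481493 lies below the other Fkbp5 probes on all 3 MR 4-25 arrays.

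Fkbp5 encodes an immunophilin that lowers the receptor's affinity for hormone and is itself strongly induced by glucocorticoids. On its brightest probe the level was 3.48, 2.89 and 3.15 in Neo and 3.00, 3.61 and 3.13 in MR 4-25. The highest and lowest values came from different lines within slide 1, MR 4-25 2 and Neo 2, and the lines overlapped. The difference was 0.073 (SE 0.25, adjusted p 0.934 in limma), with a 95% interval from 1.48-fold lower to 1.64-fold higher. A neighbouring probe, A_52_P337899, had a difference of -0.11 (adjusted p 0.830 in limma).

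The upstream Fkbp5 probe, printed above as A_52_P481493, ran apart from these. It read 0.35, 0.45 and 1.06 in Neo and -0.04, 0.17 and 0.28 in MR 4-25. Every MR 4-25 value was below every Neo value, and Neo 3 was the highest. The difference was -0.48 (SE 0.24), with an adjusted p of 0.461 in limma, so it did not pass; it was -0.27 without Neo 3, -0.34 within slide 1 and -0.78 within slide 2. This was 1 of 2 member probes, of 21, whose lines did not overlap, both lower in MR 4-25, where 25.2% of all probes did not overlap and 14.4% did so with MR 4-25 lower. Over the 6 arrays it correlated at -0.11 with the brightest Fkbp5 probe, while the brightest and its neighbour correlated at 0.814.

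Fkbp4 encodes the related immunophilin that favours hormone binding and movement of the receptor into the nucleus. On the brightest probe, printed above, the level was 4.63, 4.55 and 4.35 in Neo and 4.26, 4.32 and 4.50 in MR 4-25. The pairs of slide 1 were lower in MR 4-25 and the pair of slide 2 was higher, at -0.30 and 0.16. The difference was -0.15 (SE 0.16, adjusted p 0.761 in limma), and its interval runs from 1.47-fold lower to 1.20-fold higher. The second probe, A_51_P185175, read 3.59, 3.53 and 3.40 in Neo and 2.95, 3.19 and 3.28 in MR 4-25. Here the lines did not overlap, and MR 4-25 1 was the lowest array. Its difference was -0.37 (SE 0.16), with an adjusted p of 0.402 in limma. On the brightest probes, Fkbp4 had the smallest spread of the members, with a pooled SD of 0.136, and 10.6% of genes had a smaller one.

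Tsc22d3 encodes GILZ, a leucine zipper protein that is among the best known glucocorticoid-induced genes of lymphocytes, and it had the largest difference of the 10 genes. Its level was 3.82, 3.09 and 3.08 in Neo and 4.48, 3.43 and 4.05 in MR 4-25. MR 4-25 1 and 3 were above all Neo arrays, while MR 4-25 2 was below Neo 1. The means were 3.33 ± 0.42 and 3.98 ± 0.53 (SD, n = 3 each). The difference was 0.66 (SE 0.36), a fold of 1.58, with an adjusted p of 0.541 in limma. The 95% interval runs from 1.19-fold lower to 2.96-fold higher. The difference was 0.50 within slide 1 and 0.97 within slide 2. All 3 probes had higher means in MR 4-25; the other differences were 0.66 and 0.44, with adjusted p of 0.485 and 0.579 in limma. Within slide 2 the other probes gave 0.94 (A_51_P235816) and 0.28 (A_52_P600518), so the third probe rose less there. The 3 probes correlated at 0.906 to 0.999 over the arrays, and the pair at 0.999 lies 65 bases apart.

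Per1, a component of the circadian clock that glucocorticoids induce directly, was measured by 1 probe. Its level was 1.50, 1.22 and 0.75 in Neo and 1.92, 1.60 and 1.36 in MR 4-25. MR 4-25 1 and 2 were above all Neo arrays, and MR 4-25 3 was below Neo 1. The difference was 0.47 (SE 0.27, adjusted p 0.556 in limma), a fold of 1.39, with an interval from 1.15-fold lower to 2.22-fold higher.

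Sgk1, a serine/threonine kinase gene that acts on ion transport and cell survival, leaned the other way. On its brightest probe the level was 2.43, 1.75 and 2.00 in Neo and 1.97, 1.48 and 1.62 in MR 4-25. Each MR 4-25 array was below the Neo array of its number, but MR 4-25 1 was above Neo 2, so the lines overlapped. The difference was -0.37 (SE 0.25, adjusted p 0.631 in limma), from 1.99-fold lower to 1.20-fold higher, and was -0.36 within slide 1 and -0.37 within slide 2. It was -0.18 without Neo 1 and -0.52 without Neo 2, the lowest and highest sizes when 1 array was left out. A second probe, A_52_P352246, lies 100780 bases upstream and had signals of 18.1 to 70.4 intensity units. Its highest values were those of the slide 2 arrays, -3.84 for Neo 3 and -2.89 for MR 4-25 3, against -5.59 to -5.02 on slide 1. Its difference was 0.41 (SE 0.86, adjusted p 0.879 in limma), and it correlated at -0.34 with the brightest probe over the arrays.

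Klf9, a zinc finger transcription factor induced by glucocorticoids in many tissues, was measured at signals of 26.7 to 158 intensity units on its brightest probe. Its level was -2.69, -2.57 and -5.10 in Neo and -2.57, -2.53 and -4.19 in MR 4-25. Both slide 2 arrays were low, with 26.7 units in Neo 3 and 28.5 in MR 4-25 3, against 142 to 158 on slide 1, whichever the line. The difference was 0.36 (SE 0.87, adjusted p 0.907 in limma), and -0.47 without Neo 3. Its interval, from 3.55-fold lower to 5.83-fold higher, was the widest of the 10 genes. The pooled SD was 1.21, and 79.5% of genes had a smaller one. The second Klf9 probe, A_51_P412200, was not well above background on any of the 6 arrays and was not tested.

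Txnip, Ddit4 and Btg1 encode growth-restraining proteins: an inhibitor of thioredoxin, an inhibitor of mTORC1 signalling and an antiproliferative factor. The Txnip level was 2.69, 2.04 and 1.64 in Neo and 3.12, 2.59 and 1.88 in MR 4-25. In both lines replicate 1 was highest and replicate 3 lowest, and the lines overlapped. The difference was 0.41 (SE 0.43, adjusted p 0.750 in limma), from 1.60-fold lower to 2.81-fold higher. The split probe printed above had a difference of 0.33 (adjusted p 0.757 in limma) and correlated at 0.958 with the brightest.

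The Ddit4 level was 7.93, 8.82 and 8.40 in Neo and 8.70, 8.56 and 9.09 in MR 4-25. Neo 1 was the lowest array and MR 4-25 3 the highest, with Neo 2 above MR 4-25 1 and 2. The difference was 0.40 (SE 0.29, adjusted p 0.663 in limma), and the interval runs from 1.27-fold lower to 2.20-fold higher. None of its spots was saturated.

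The Btg1 level was 3.77, 3.48 and 3.29 in Neo and 4.04, 3.60 and 3.24 in MR 4-25. The highest and the lowest array were both MR 4-25, numbers 1 and 3. The difference was 0.11 (SE 0.27, adjusted p 0.904 in limma), and the second Btg1 probe gave -0.14 (adjusted p 0.882 in limma). The Btg1 interval runs from 1.47-fold lower to 1.73-fold higher.

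**Figure D3:**
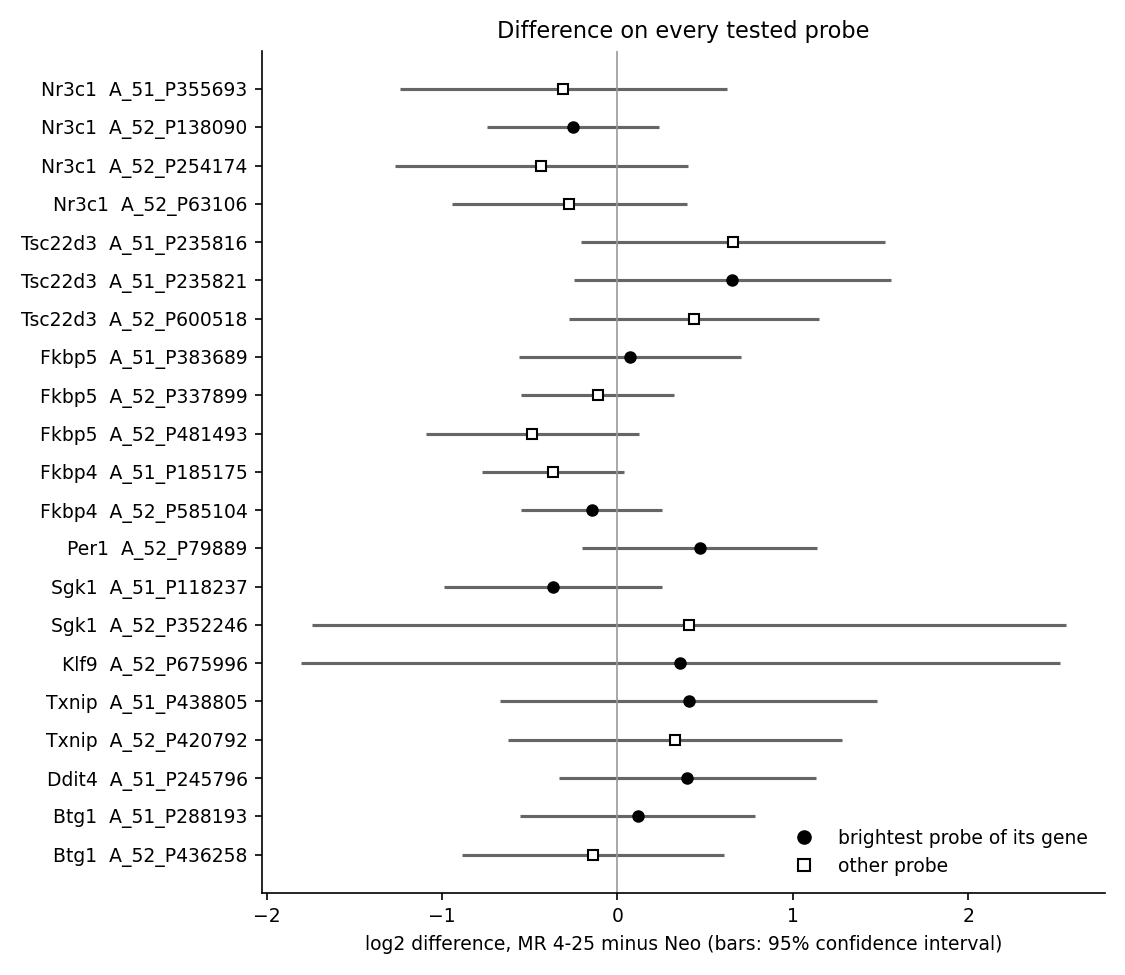
Log2 difference, MR 4-25 minus Neo, of the 21 tested probes of the 10 genes, with 95% confidence intervals from limma (filled, the brightest probe of its gene; open, other probes). All intervals include 0, and those of the dim Klf9 probe and of the upstream Sgk1 probe are the widest.

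The members were also read within replicate numbers. Deviations of same-numbered arrays correlated over all genes, but that check does not separate number from slide. All 3 differences between same-numbered arrays had one sign for 6 of 10 members, where 43.9% of all genes did. They were above 0 for Tsc22d3, Per1, Klf9 and Txnip and below 0 for Nr3c1 and Sgk1. For Per1 the differences were 0.43, 0.38 and 0.60, for Tsc22d3 0.66, 0.34 and 0.97, and for Sgk1 -0.46, -0.26 and -0.37. For Fkbp5 they were -0.48, 0.72 and -0.023, the widest disagreement within slide 1. With the number as a block, 2 members had an unadjusted p under 0.05 in limma, Tsc22d3 at 0.037 and Per1 at 0.048, where 13.2% of all genes had one in that fit, and the smallest adjusted p of the 10 was 0.352. Replicate 1 was the highest array of both lines for Tsc22d3, Per1, Sgk1, Txnip and Btg1, that is 5 of 10 members, where 14.4% of all genes had that order. MR 4-25 1 was the highest of all 6 arrays for 4 members, and Neo 3 was the lowest for 4. The shares of all genes were not computed for these last counts.

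**Figure D4:**
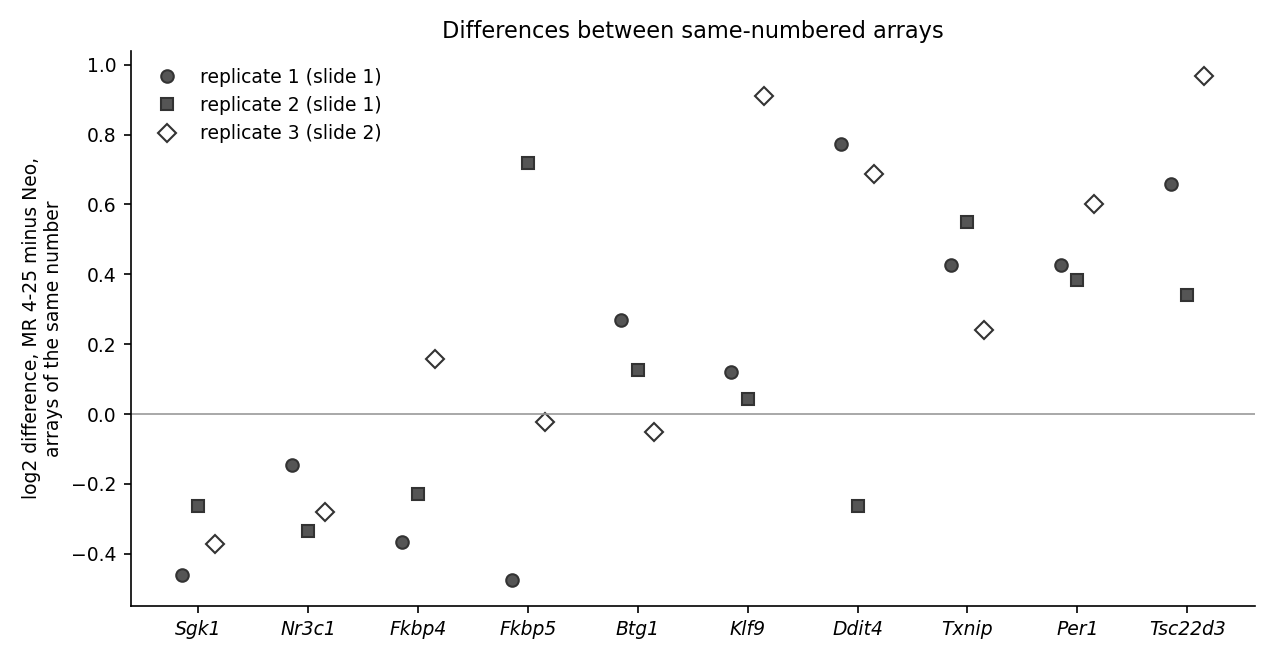
Log2 difference, MR 4-25 minus Neo, between arrays of the same replicate number for each of the 10 genes, sorted by mean difference (filled, numbers 1 and 2 on slide 1; open, number 3 on slide 2). Tsc22d3, Per1, Txnip and Klf9 have all 3 points above 0, and Sgk1 and Nr3c1 all 3 below.

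The wider pathway was read from 4 lists with 74 genes, of which 72 were named on the array. Of 16 chaperones and cochaperones of the receptor, all were tested and 0 rose and 0 fell, with a median difference of -0.039. Some other probes, chosen for naming after their values were seen, differed from the brightest. Hspa4 had -0.24 on its brightest probe and -1.31, -1.32 and -0.35 on the others (adjusted p 0.114, 0.195 and 0.470 in limma over all probes). Dnajb1 had -0.28 on its brightest probe and 0.21 on the other (adjusted p 0.587 in limma over all probes). Hsp90aa1, the inducible Hsp90, had a difference of 0.27 (adjusted p 0.707 in limma). Ptges3, the p23 cochaperone that stabilises the hormone-binding form, read 4.68, 4.74 and 4.84 in Neo and 4.27, 4.41 and 4.22 in MR 4-25. The lines did not overlap for Ptges3, but its difference of -0.46 (SE 0.15) did not pass, with an adjusted p of 0.269 in limma. Its second probe gave -0.35, with overlapping lines (adjusted p 0.561 in limma over all probes). Ahsa1, an activator of the Hsp90 ATPase, had -0.48 (adjusted p 0.390 in limma). Hdac6, a deacetylase that acts on Hsp90, read 1.61, 1.53 and 1.60 in Neo and 2.34, 2.46 and 2.69 in MR 4-25. All MR 4-25 values of Hdac6 were higher, and its difference of 0.92 (SE 0.16) had an adjusted p of 0.0859 in limma. It passed, at 0.0328, when genes had to be well above background on all 6 arrays. Hdac6 did not pass with slide or replicate number as a block (adjusted p 0.0769 and 0.231 in limma). In all, the lines did not overlap for 5 of the 16, 1 higher and 4 lower, beside 11.2% and 13.1% of all genes.

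Among the 16 coregulators, all tested, 0 rose and 0 fell, and the median difference was -0.22. It was -0.16 within slide 1 and -0.31 within slide 2. Ncoa1, a coactivator of the p160 family, had a difference of 0.59 (adjusted p 0.254 in limma), and Nrip1, a corepressor, 0.10 on its brightest probe (adjusted p 0.897 in limma). The other Nrip1 probes pointed the other way, at -0.99 (SE 0.30, lines not overlapping) and -0.072, with adjusted p of 0.237 and 0.922 in limma over all probes. Tgs1 had -0.54 and Trim28 -0.46, with adjusted p of 0.268 and 0.355 in limma. The lines did not overlap for 6 of the 16, 1 higher and 5 lower, beside 11.2% and 13.1% of all genes.

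Of 10 receptor relatives and genes of hormone metabolism and export, 9 were tested, 0 rose and 0 fell, and the median was 0.073; Pgr was not well above background on any array. Nr3c2, the mineralocorticoid receptor, which also binds glucocorticoids, ranged from -4.57 in MR 4-25 1 to 0.21 in MR 4-25 3. The Neo arrays lay within that range, from -4.44 to -0.72. Its difference was -0.83 on this, its brightest probe (SE 1.70, adjusted p 0.890 in limma), while its other probe gave 0.51 (SE 0.26, adjusted p 0.476 in limma over all probes), so the probes disagree in sign. Hsd11b1, which regenerates active hormone from its inactive form, had -0.58 (adjusted p 0.624 in limma), and Hsd11b2, which inactivates it, 0.61 (adjusted p 0.797 in limma). Esr1, the oestrogen receptor, had 0.76 (adjusted p 0.807 in limma). Esr1 and Hsd11b2 were each well above background on 4 arrays only.

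Of 32 further genes known to be induced by glucocorticoids in one tissue or another, 28 were tested, 1 rose and 0 fell. The median difference was 0.21, with 0.33 within slide 1 and 0.081 within slide 2, where all genes had -0.020 and 0.093. The gene that rose was Zfp36, which encodes tristetraprolin, a protein that destabilises AU-rich mRNAs of inflammatory genes. It read -1.75, -1.98 and -1.71 in Neo and -0.02, -0.16 and 0.31 in MR 4-25. Every MR 4-25 array was above every Neo array. The difference was 1.86 (SE 0.19), 3.62-fold, with an adjusted p of 0.0230 in limma, and the second Zfp36 probe gave 1.40 (adjusted p 0.0497 in limma over all probes). The call on Zfp36 was lost in the fit blocked on replicate number (difference 1.86, adjusted p 0.108), with normexp background correction (1.50, adjusted p 0.112) and on slide 1 alone (1.77, adjusted p 0.0626). It was also lost without Neo 1 (0.140), Neo 2 (0.152), Neo 3 (0.112), MR 4-25 1 (0.123) or MR 4-25 2 (0.0944), with a difference of 1.77 to 1.96 in these 5 fits.

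In that list the lines did not overlap for 7 of the 28 genes with MR 4-25 higher and for 2 with it lower, Errfi1 and Cxcr4. Beside these stand 11.2% and 13.1% of all genes. Only Zfp36 among them passed. Anxa1, which encodes an anti-inflammatory annexin, read -6.72, -3.07 and -3.22 in Neo and 0.17, -0.55 and 0.00 in MR 4-25. All Neo arrays were lower, Neo 1 by far the lowest, and the probe was well above background on 5 arrays. The Anxa1 difference of 4.21 (SE 1.06) had an adjusted p of 0.185 in limma. Dusp1, a phosphatase of MAP kinases, had 1.51 (SE 0.27) and an adjusted p of 0.0903 in limma. It passed, at 0.0391, with the filter on all 6 arrays. Dusp1 did not pass with slide or replicate number as a block (adjusted p 0.0615 and 0.201 in limma). In all, 7 of the 28 had an unadjusted p under 0.05 with MR 4-25 higher, beside 5.93% of all genes, and 0 with it lower. The list was chosen with earlier results of these data known, so this count is a description. Chosen for naming after their values were seen, the other 4 of the 7 were Cdkn1a at 1.38, Socs1 at 0.81, Nfkbia at 0.73 and Bcl6 at 0.67, with adjusted p of 0.195, 0.259, 0.197 and 0.189 in limma. The lowest were Foxo3 at -1.28 and Errfi1 at -0.94 (adjusted p 0.633 and 0.607 in limma), and each had its lowest value on MR 4-25 3, at -6.40 and -6.23. Several of these genes are also known to respond to stimuli other than glucocorticoids.

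**Figure D5:**
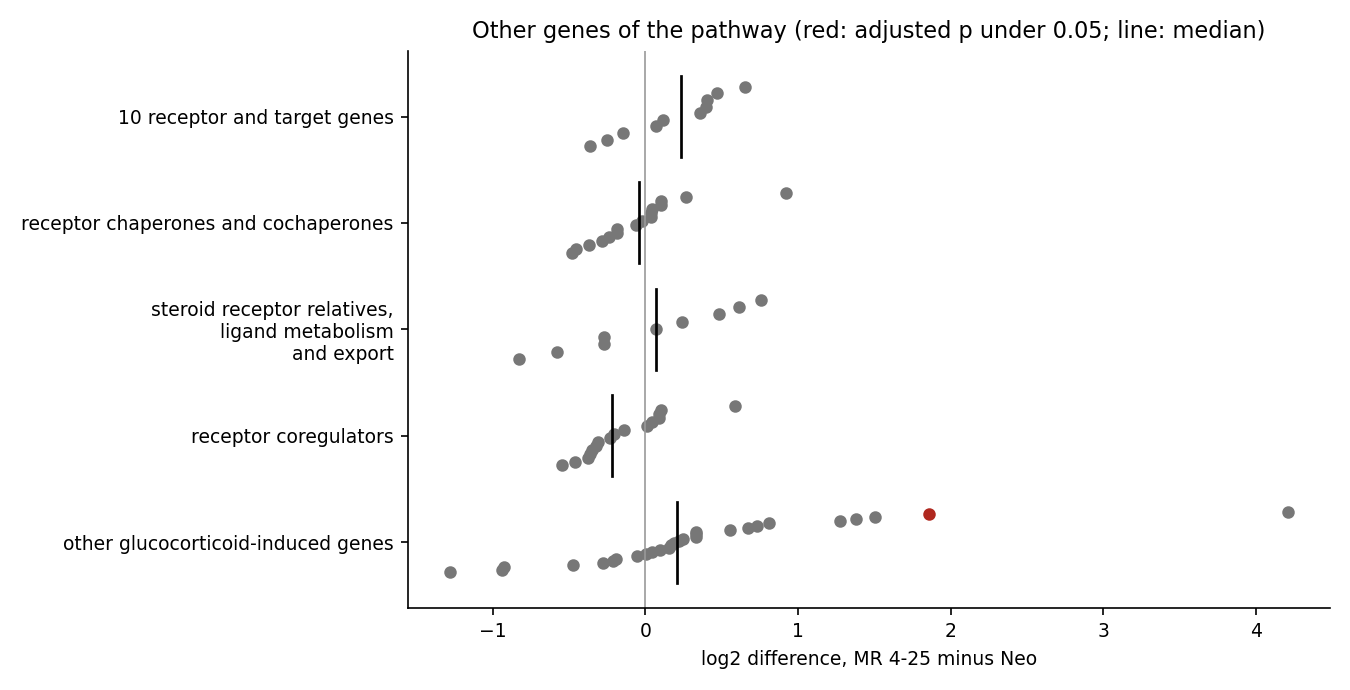
Log2 difference, MR 4-25 minus Neo, of every tested gene of the 10 members and of the 4 wider lists, 1 point per gene, with a vertical line at each median. Only Zfp36 (red) passed the test; Anxa1 lies farther out at 4.21 with a larger error.

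By array profile, the genes most like Nr3c1 among 15238 genes with signals well above background on all 6 arrays were Zfp35 (r = 0.999), Micos10 (r = 0.995) and Fgfbp1 (r = 0.994). With 6 arrays, 391 genes reached r of 0.9 or more, and all of them share the same arrays and scaling, so the likeness is a description.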

How the data were processed

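Agilent whole-genome arrays of 3 Neo and 3 MR 4-25 samples were analysed. The authors deposited scanner output with background-corrected Cy3 intensity values, processed by version 9.5.3.1 of Agilent Feature Extraction, per the file headers (9.5 per the submitters' processing notes). A deposited value table held the same intensity values, neither logged nor centred, with medians of 86.4 to 90.2 on 5 arrays and 50.2 on MR 4-25 3. A shift of the scaling moves all genes of an array, so levels are relative, and values of dim probes depend on the background that the scanner software subtracted.

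Control spots and spots marked as outliers were left out, and log2 signals were set relative to the 75th percentile of the 43379 gene spots of their array. Probes were kept (30965) where 3 or more of the 6 arrays had them well above background, which kept 21 of the 22 member probes and all 10 genes. Names came from RefSeq through accession (22951 probes) or synonym (3109), or were those of the file. The brightest probe stood for each of 21341 genes. Limma 3.58.1 (R 4.3.3) compared the lines with lmFit and eBayes, all 6 arrays and no covariate. The procedure was tested on simulated arrays without slide or replicate effects. The differences put in were larger than those of the members, so the simulation does not show how differences of their size are found.

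The members, lists and alternatives were chosen with earlier results of these data known. Named were all members with every probe, in each wider list the genes that passed and the 2 largest differences in each direction, and the 3 genes most like Nr3c1 by array profile. Alternatives were normexp background correction (offset 50), quantile and median scaling, the mean over probes, no filter or a stricter one (all 6 arrays), the value table, slide as a block, slide 1 alone, the replicate number as a block, and leaving out each array. Deviations from the line means correlated at 0.29, 0.21 and 0.56 over all genes between same-numbered arrays, and the numbers were treated as pairs. Arrays of different numbers were not compared, and number 3 of each line is its only array on slide 2. The check therefore does not separate number from slide, and the pairing comes from the label numbers alone. The number of arrays limits the precision of all values. Irs2 and Zbtb16 were not matched by name, and Il7r and Cebpd did not pass the filter.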

Additional observations from a re-analysis of the deposited data

How the results depend on the processing

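Across the 16 alternatives run, 0 member genes passed, and 0 member probes in those that test single probes. Both filters, the value table, and slide or replicate number as a block left every member difference unchanged. They therefore say nothing about direction. Nr3c1 (-0.44 to -0.13), Fkbp4 (-0.30 to -0.087), Tsc22d3 (0.41 to 0.93), Per1 (0.27 to 0.64), Txnip (0.11 to 0.73) and Ddit4 (0.12 to 0.62) kept their direction under the remaining alternatives. Of the others, Btg1 turned to -0.083 with normexp, -0.012 with the mean over probes and, among fits leaving out 1 array, ranged from -0.092 (without MR 4-25 1) to 0.31. Fkbp5 turned to -0.22 with normexp and -0.17 with the mean over probes, and ranged from -0.11 to 0.22 when 1 array was left out, below 0 without Neo 2 (-0.067) or MR 4-25 2. Klf9 ranged from -0.47 (without Neo 3) to 0.91 when 1 array was left out, and Sgk1 from -0.52 to -0.18; Sgk1 turned to 0.022 with the mean over probes, which includes its upstream probe. Normexp moved the median of all genes to 0.34; 3 of 10 members were above that median, against 7 of 10 above the median in the reported fit. Genes that passed numbered 80 with normexp, 524 with the filter on all 6 arrays and 124 on slide 1 alone; probes numbered 90, 751 and 172, and 224 with no filter. With the replicate block 1 gene and 1 probe passed, and the 0 member calls stayed. Leaving out 1 array gave 0 to 223 genes and 6 to 308 probes. Of the other glucocorticoid-induced genes, 2 passed with the filter on all 6 arrays (Zfp36 and Dusp1), and 0 with normexp, on slide 1 alone or with the replicate block; leaving out 1 array gave 0 or 1. Of the chaperones, 1 passed with the filter on all 6 arrays. Of 286 alternative values, 9 reversed, 29 were counts that moved by more than 1.5 times, and 248 kept their direction and side of the threshold or, for counts, stayed within 1.5 times. The 248 include the member differences that the filters, the value table and the blocks left unchanged. The causes were not tested. Esr1 and Hsd11b2 were well above background on 4 arrays and Anxa1 on 5, which limits their differences.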
